A study of Mus musculus with 10 samples.

Results

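Collagens are the triple-helical proteins of the extracellular matrix, and the genes described here are the 44 mouse genes with a symbol of the form Col, number, a, number, out of 19938 genes measured. All 44 genes that RefSeq lists under such a symbol had a probe set on the array that the platform's annotation assigns to that gene alone. Of several probe sets of a gene the one with the highest mean over the 10 arrays was taken; 42 collagen genes had only 1. The members were taken by name, but the family was chosen with earlier results of these data known.

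The samples were dorsal root ganglia (DRGs), in which the sensory neurons of the body wall and limbs have their cell bodies, dissected at E13.5. The 5 Lkb1 KO samples came from embryos of a mixed genetic background whose floxed Lkb1 alleles (the gene is Stk11) were deleted by Wnt1-Cre, and the 5 WT samples came from littermates. Each sample pooled DRGs from 2 embryos and was hybridised to 1 one-colour array. Wnt1-Cre is active in the neural crest, from which the neurons and glia of DRGs arise, and in the dorsal neural tube, so a ganglion also holds cells that the Cre does not reach. Stk11 itself was at 7.68, 7.82, 7.69, 7.77 and 7.94 in Lkb1 KO pools, against 8.61, 8.61, 8.51, 8.70 and 9.08 in WT pools, a log2 fold change of -0.92 (SE 0.09, adjusted p = 0.00011 from limma). No map of the Stk11 probes onto the deleted exons was used here. All levels are deposited log2 values on which a difference of 1 is a doubling, a log2 fold change is the Lkb1 KO mean minus the WT mean, and genes were called where the adjusted p from limma over all 19938 genes was under 0.05. In such bulk samples, fewer cells of a type and less RNA per cell cannot be told apart.

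Collagen chains fold in the endoplasmic reticulum into trimers, which are modified, secreted, trimmed and crosslinked. Fibrillar collagens (types I, II, III, V and XI among them) form the cables of connective tissue and cartilage, FACIT collagens sit on the surface of those fibrils, type VI forms beaded microfilaments between cells and fibrils, and type IV forms the sheet of basement membranes. In a nerve or ganglion, fibroblasts are the usual source of fibrillar collagen, and Schwann cells and vessels are wrapped in basement membrane.

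Of the 44 collagen genes 11 were called higher in Lkb1 KO DRGs, 1 was called lower and 32 were not called. That is 25% of the members called higher and 2.27% called lower, where 2.49% of all genes tested were called higher and 1.38% lower. The log2 fold change was positive for 31 members and negative for 13, with a median of 0.04 over the members and of -0.0017 over all genes tested. All 5 Lkb1 KO pools lay above all 5 WT pools for 12 members (27.3%) and below them for 1 (2.27%), as they did for 3.09% and 2.24% of all genes tested. At an adjusted p under 0.01, 7 members were called higher, where 1.16% of all genes were. The higher genes were chains of fibrillar types I, II, III and V, of type VI, of the fibril-bound type XII, and of types VIII and XVIII, whereas none of the 6 type IV genes was called. The changes were modest: the called log2 fold changes ran between 0.16 (Col5a1) and 0.57 (Col18a1) upwards, and the called gene that fell was Col22a1.

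**Figure D1:**
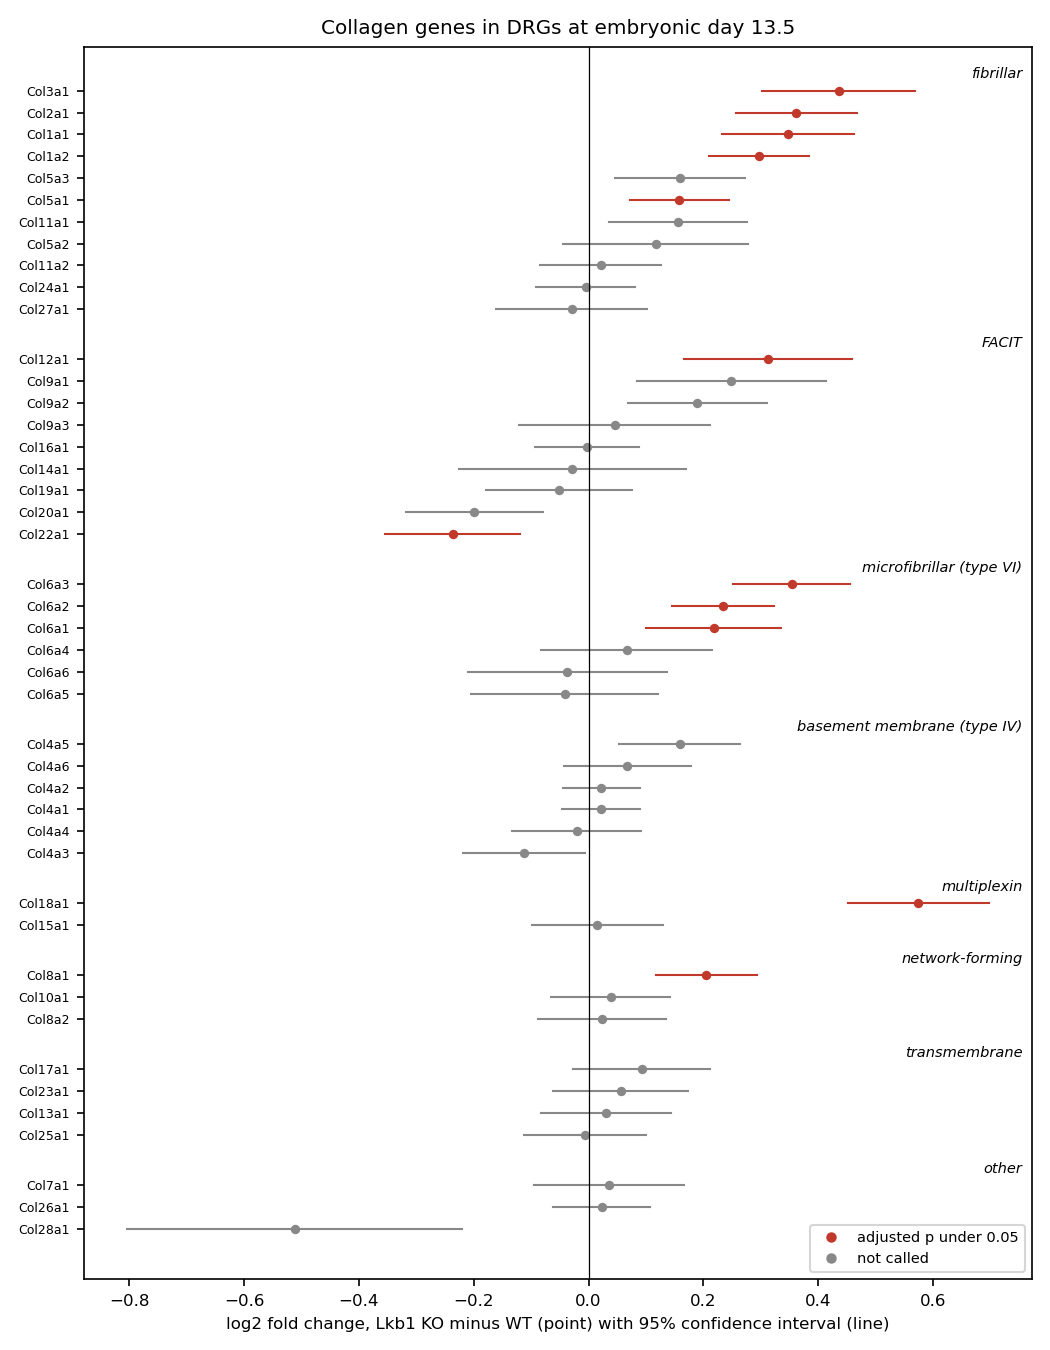
Log2 fold changes of the 44 collagen genes (Lkb1 KO minus WT, points) with 95% confidence intervals (lines), grouped by class and sorted within each; red marks an adjusted p under 0.05 from limma, grey the genes not called. Col18a1 lies furthest to the right at 0.57, the 6 type IV genes lie between -0.11 and 0.16, and Col28a1, at -0.51, has the widest interval.

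Promoter sequences are shown for 5 members with a start in RefSeq (GRCm38.p6), chosen after their values were seen: Col18a1, with both of its annotated starts, Col3a1, Col1a2 and Col6a3 as called members, and Col28a1 as the member furthest below 0. Each is the 250 bases before the start, 5′ to 3′ on the gene's own strand, and capitals mark the motifs searched on both strands, which do not overlap here. The first was CCAAT, the box bound by CCAAT-binding factors. The second motif was TATAAA, a form of the sequence near which many genes begin transcription. The third, the GC box bound by factors of the Sp family, was GGGCGG.
Col18a1, chr10:77113706-77113955, minus strand: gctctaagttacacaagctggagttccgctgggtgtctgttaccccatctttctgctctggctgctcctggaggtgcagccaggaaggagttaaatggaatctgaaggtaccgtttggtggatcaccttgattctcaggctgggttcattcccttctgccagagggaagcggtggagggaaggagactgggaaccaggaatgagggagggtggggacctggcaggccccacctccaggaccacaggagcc
Col18a1, chr10:77166531-77166780, minus strand: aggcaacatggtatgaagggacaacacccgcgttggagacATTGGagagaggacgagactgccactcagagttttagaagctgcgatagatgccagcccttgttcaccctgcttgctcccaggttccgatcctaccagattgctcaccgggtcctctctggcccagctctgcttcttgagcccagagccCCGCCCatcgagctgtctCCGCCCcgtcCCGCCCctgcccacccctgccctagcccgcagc
Col3a1, chr1:45311288-45311537, plus strand: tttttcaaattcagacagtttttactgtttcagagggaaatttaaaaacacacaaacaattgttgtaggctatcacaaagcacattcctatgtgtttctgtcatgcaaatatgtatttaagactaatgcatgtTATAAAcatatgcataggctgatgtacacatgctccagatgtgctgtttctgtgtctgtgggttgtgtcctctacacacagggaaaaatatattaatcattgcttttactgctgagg
Col1a2, chr6:4505368-4505617, plus strand: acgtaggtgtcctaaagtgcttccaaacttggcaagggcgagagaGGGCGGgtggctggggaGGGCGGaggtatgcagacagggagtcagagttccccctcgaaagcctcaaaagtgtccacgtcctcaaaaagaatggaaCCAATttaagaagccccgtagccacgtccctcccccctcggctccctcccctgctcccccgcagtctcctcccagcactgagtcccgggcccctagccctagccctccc
Col6a3, chr1:90843972-90844221, minus strand: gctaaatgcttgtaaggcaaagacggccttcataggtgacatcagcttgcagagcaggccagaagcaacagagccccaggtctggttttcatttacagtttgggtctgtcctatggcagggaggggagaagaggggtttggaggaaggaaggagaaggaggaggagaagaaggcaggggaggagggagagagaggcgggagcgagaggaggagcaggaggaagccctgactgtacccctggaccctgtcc
Col28a1, chr6:8192618-8192867, minus strand: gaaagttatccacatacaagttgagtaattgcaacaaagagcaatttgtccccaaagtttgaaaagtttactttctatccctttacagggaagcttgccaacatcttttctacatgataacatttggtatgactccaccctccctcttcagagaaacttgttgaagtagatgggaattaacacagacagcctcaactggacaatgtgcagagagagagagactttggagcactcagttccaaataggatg

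These windows share little by the motifs searched. The Col1a2 window had a CCAAT beginning 109 bases before the start and 2 GC boxes, the Col3a1 window a TATAAA 117 bases before it, the Col18a1 window at 77166531 a CCAAT in reverse and 3 GC boxes, and the windows of Col6a3, Col28a1 and the other Col18a1 start none of the 3. The array's probe set for Col18a1 does not say which start was used. Over the family, 35 of the 44 genes matched 38 windows, and Col1a1, Col2a1, Col12a1, Col14a1, Col22a1, Col26a1, Col4a3, Col5a2 and Col9a3 are named only. GGGCGG was in 57.9% of the collagen windows and in 32.7% of all 32851 windows of that length; CCAAT was in 34.2% against 33.8%, and TATAAA in 13.2% against 12.4%. The GC box was in 6 of the 10 windows of genes called higher (60%) and in 57.1% of the windows of the other collagen genes, so it did not separate the members that were called. A match of letters is a description and not a site of binding.

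Among the 11 fibrillar genes 5 were higher and none lower, with a median log2 fold change of 0.16. Col3a1, whose chain forms the type III homotrimer of stretchable tissues, was at 8.85, 8.59, 8.71, 8.64 and 8.69 in Lkb1 KO pools and at 8.23, 8.13, 8.31, 8.19 and 8.43 in WT pools. The groups did not overlap, and the log2 fold change was 0.44 (SE 0.06, adjusted p = 0.0016 from limma), or 1.35-fold. Col1a1 and Col1a2 encode the 2 chains of type I collagen, the main protein of skin, tendon and bone. Col1a1 was at 9.31, 9.23, 9.43, 9.34 and 9.19 in Lkb1 KO pools and at 8.98, 8.95, 9.03, 8.81 and 8.99 in WT pools, 1.27-fold higher (log2 fold change 0.35, SE 0.05, adjusted p = 0.0027 from limma). Col1a2 was at 9.61, 9.55, 9.64, 9.63 and 9.54 in Lkb1 KO pools and at 9.35, 9.23, 9.36, 9.24 and 9.32 in WT pools, 1.23-fold higher (log2 fold change 0.30, SE 0.04, adjusted p = 0.0011 from limma). Every Lkb1 KO pool exceeded every WT pool for both genes, and their log2 fold changes differed by 0.05 (SE 0.03, exact two-sided permutation p = 0.19), so the difference between the 2 chains was within the spread of the pools.

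Col2a1 encodes the chain of type II collagen, the fibril of cartilage and notochord. It was at 7.27, 7.34, 7.32, 7.42 and 7.16 in Lkb1 KO pools and at 6.91, 6.92, 6.98, 7.01 and 6.87 in WT pools, with no overlap and a log2 fold change of 0.36 (SE 0.05, adjusted p = 0.0010 from limma). Col5a1, a chain of the type V collagen that starts type I fibrils, was at 6.61, 6.57, 6.62, 6.62 and 6.54 in Lkb1 KO pools and at 6.46, 6.37, 6.41, 6.40 and 6.53 in WT pools. Its lowest Lkb1 KO pool exceeded its highest WT pool by 0.0027, and its log2 fold change of 0.16 (SE 0.04) had an adjusted p of 0.0461 from limma. The Col5a1 call was lost with a block for the replicate number (adjusted p = 0.0620 from limma), and without any 1 of Lkb1 KO replicates 1, 2, 3 and 4 or WT replicates 1, 2, 3 and 4 (adjusted p between 0.0739 and 0.123 from limma). The call was also lost with array medians aligned, cyclic loess normalisation, a one-way analysis of variance or a trended, robust prior in limma. It was kept in 6 of 21 alternatives. Col5a2, Col5a3, Col11a1, Col11a2, Col24a1 and Col27a1 were not called, the furthest from 0 being Col5a3 at 0.16 (SE 0.05, adjusted p = 0.133 from limma). Without WT replicate 5, the highest WT pool for both, Col11a1 (0.20, adjusted p = 0.0237 from limma) and Col5a3 (0.19, adjusted p = 0.0479 from limma) passed.

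Type VI collagen is built from 3 chains, and the genes of the classical 3, Col6a1, Col6a2 and Col6a3, were all higher. Col6a3, the longest chain, was at 8.50, 8.40, 8.44, 8.41 and 8.49 in Lkb1 KO pools and at 7.97, 8.21, 8.10, 8.06 and 8.13 in WT pools, a log2 fold change of 0.35 (SE 0.05, adjusted p = 0.00094 from limma). Col6a2 was at 7.54, 7.47, 7.50, 7.47 and 7.44 in Lkb1 KO pools and at 7.37, 7.21, 7.20, 7.24 and 7.22 in WT pools, a log2 fold change of 0.23 (SE 0.04, adjusted p = 0.0068 from limma). Col6a1 was at 7.42, 7.23, 7.19, 7.34 and 7.27 in Lkb1 KO pools and at 7.18, 7.06, 6.96, 7.01 and 7.13 in WT pools, a log2 fold change of 0.22 (SE 0.05, adjusted p = 0.0434 from limma). No WT pool reached the lowest Lkb1 KO pool for any of the 3, though the highest WT pool came within 0.01 of it for Col6a1. The Col6a1 call was lost without any 1 of Lkb1 KO replicates 1, 2, 4 and 5 or WT replicates 2, 3 and 4 (adjusted p between 0.0630 and 0.116 from limma). It was also lost with array medians aligned, a one-way analysis of variance or a trended, robust prior in limma, and kept in 9 of 21 alternatives. The log2 fold change of Col6a3 exceeded that of Col6a2 by 0.12 (SE 0.07, exact two-sided permutation p = 0.143), and those of Col6a1 and Col6a2, neighbours on chromosome 10, differed by -0.02 (SE 0.04, exact two-sided permutation p = 0.73). The later-found chains Col6a4, Col6a5 and Col6a6 were not called, with log2 fold changes between -0.04 and 0.07, and Col6a4 was among the dimmest 30% of all genes. Both probe sets of Col6a5 (-0.04 and -0.07) and of Col6a6 (-0.04 and 0.06) stayed near 0.

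**Figure D2:**
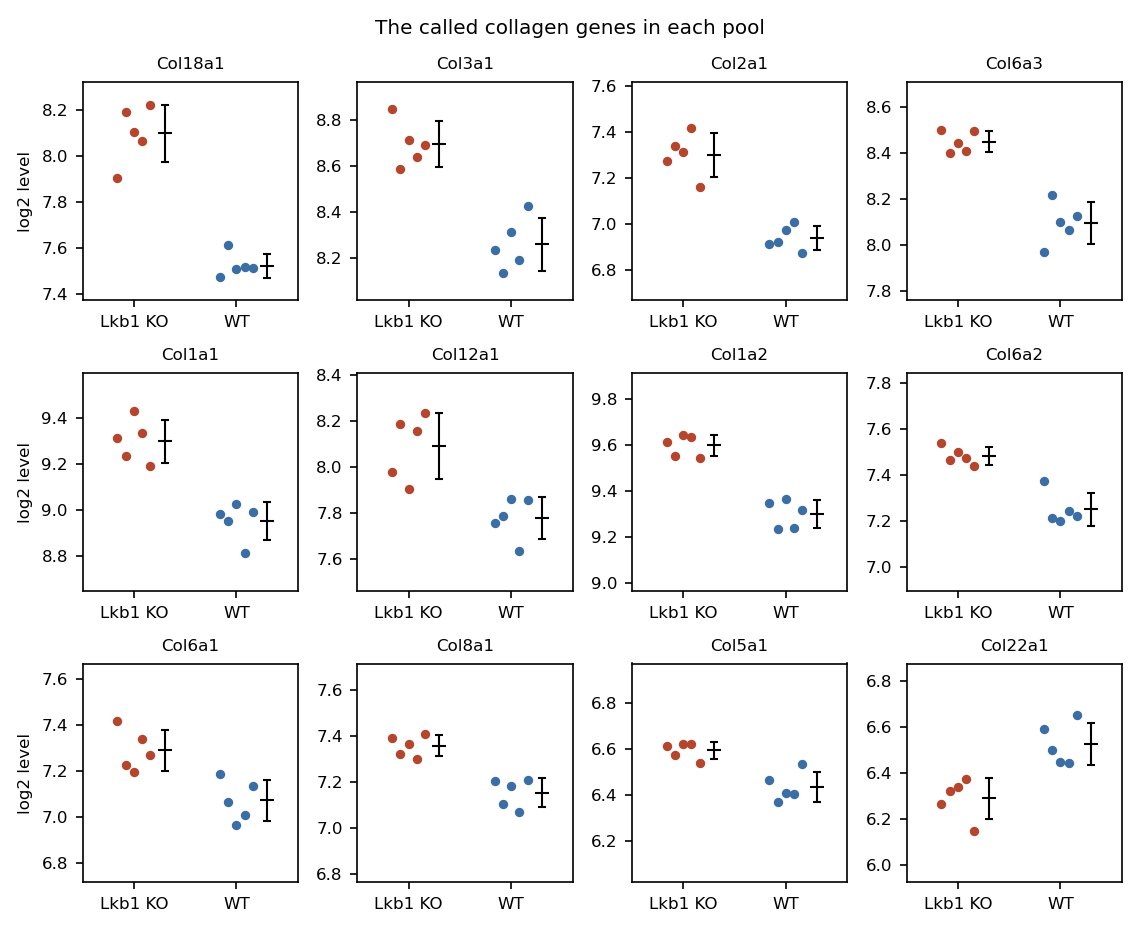
Deposited log2 level (vertical axis, the same span of units in every panel) of the 12 called collagen genes in each pool, Lkb1 KO in red and WT in blue; black bars give the mean and SD of 5 pools, and dots within a group stand in replicate order from 1 to 5. The groups do not overlap in any panel, and Col22a1 alone is lower in Lkb1 KO.

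Col18a1 had the greatest rise of any member. It encodes type XVIII collagen, a multiplexin of basement membranes that carries heparan sulfate and whose cleaved end is endostatin. Its level was 7.91, 8.19, 8.10, 8.06 and 8.22 in Lkb1 KO pools and 7.47, 7.61, 7.51, 7.52 and 7.51 in WT pools, so that the lowest Lkb1 KO pool stood 0.295 above the highest WT pool. The log2 fold change was 0.57 (SE 0.06, 95% confidence interval 0.45 to 0.70), or 1.49-fold, with an adjusted p of 0.00011 from limma. Col15a1, the only other multiplexin, averaged 7.10 ± 0.09 in Lkb1 KO and 7.09 ± 0.08 in WT DRGs (SD, n = 5 each), and its log2 fold change of 0.02 had a 95% confidence interval of -0.10 to 0.13. The difference between the log2 fold changes of Col18a1 and Col15a1 was 0.56 (SE 0.09, exact two-sided permutation p = 0.00794, 0.0397 after Benjamini-Hochberg adjustment over 10 such pairs), and 0.00794 is the smallest p that 5 against 5 pools allow. It was positive in all 5 replicate numbers (0.38 to 0.88). The 10 pairs were chosen with earlier results of these data known, and the adjustment does not account for that choice. With labels exchanged only within replicate numbers, a pairing added after seeing the data, the exact two-sided permutation p was 0.0625, the smallest that 5 pairs allow, and 0.156 after adjustment, so that this form of the test cannot pass.

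None of the 6 type IV genes, which make the network of basement membranes, was called, and their median log2 fold change was 0.02. Col4a1 was at 8.11, 8.12, 8.14, 8.14 and 8.11 in Lkb1 KO pools and at 8.10, 8.07, 8.09, 8.11 and 8.14 in WT pools. Col4a2, its partner in the most widespread type IV trimer and its neighbour in opposite orientation on chromosome 8, was at 7.77, 7.76, 7.76, 7.80 and 7.81 in Lkb1 KO pools and at 7.77, 7.75, 7.76, 7.76 and 7.76 in WT pools. Both had a log2 fold change of 0.02 (SE 0.03), with 95% confidence intervals that reached 0.09 at most, and the difference between them was -0.00017 (SE 0.02, exact two-sided permutation p = 1). The promoter windows of the pair, as defined above, did not overlap. They lay at 11312555-11312804 for Col4a2 and at 11312827-11313076 for Col4a1.

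The type I chain Col1a2 and the type IV chain Col4a1 differed in size of change: the log2 fold change of Col1a2 exceeded that of Col4a1 by 0.27 (SE 0.03, exact two-sided permutation p = 0.00794, 0.0397 after adjustment over the same 10 pairs), with every Lkb1 KO pool above every WT pool in that within-array difference. It was positive in all 5 replicate numbers (0.24 to 0.37), and exchanging labels within numbers again gave the smallest possible exact permutation p of 0.0625, or 0.156 after adjustment. This pair, too, was chosen with earlier results of these data known. Of the rarer type IV chains, Col4a3 and Col4a4, neighbours on chromosome 1 that encode chains of the adult kidney membrane, were at -0.11 and -0.02. Col4a5, on the X chromosome, was at 5.65, 5.65, 5.79, 5.81 and 5.65 in Lkb1 KO pools and at 5.51, 5.46, 5.55, 5.64 and 5.60 in WT pools. Its groups did not overlap, but at a log2 fold change of 0.16 (SE 0.05) the adjusted p was 0.107 from limma; with a block for the replicate number it was 0.0458. Col4a6, next to it, was among the dimmest 30% of genes and at 0.07.

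**Figure D3:**
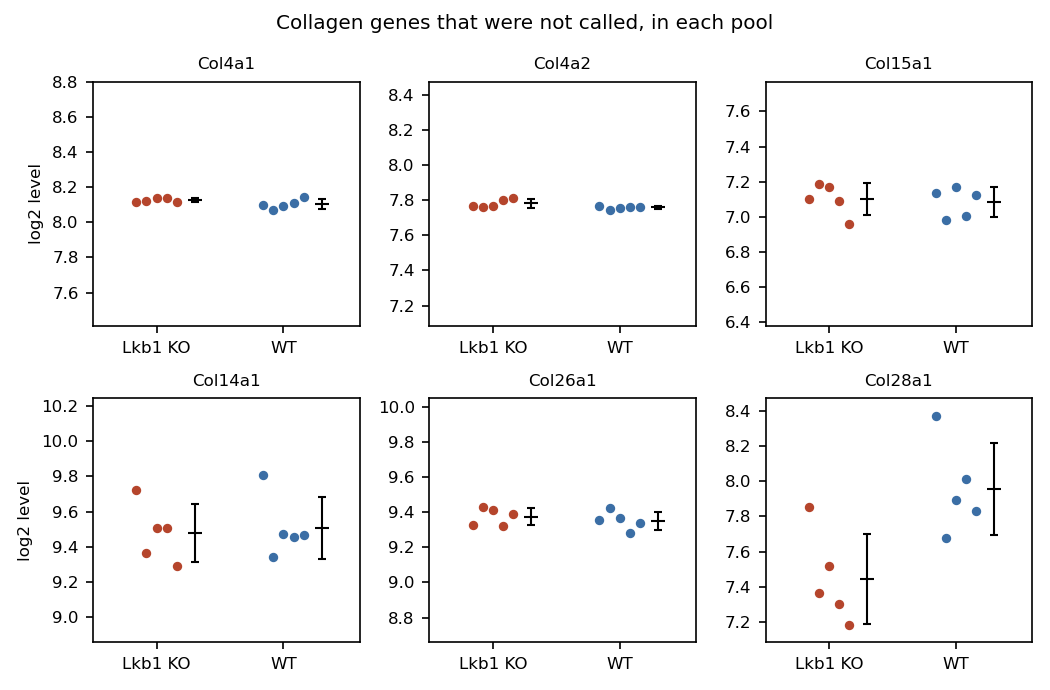
Deposited log2 level (vertical axis, the same span of units in every panel) of 6 collagen genes that were not called, in each pool; colours, bars (mean and SD of 5 pools) and the order of dots are as for the called genes. Col4a1, Col4a2, Col15a1 and Col26a1 overlap between Lkb1 KO and WT, each with a log2 fold change of 0.02. For Col4a1, 4 of the 5 WT pools lie below every Lkb1 KO pool, by small amounts. For Col28a1, 4 of the 5 Lkb1 KO pools lie below every WT pool. Replicate 1 is the highest of both groups for Col14a1 and Col28a1.

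Of the 9 FACIT genes 1 was higher and 1 lower, with a median log2 fold change of -0.0032. Col12a1, whose type XII collagen binds type I fibrils, was at 7.97, 8.19, 7.90, 8.15 and 8.23 in Lkb1 KO pools and at 7.76, 7.78, 7.86, 7.63 and 7.85 in WT pools, a log2 fold change of 0.31 (SE 0.07, adjusted p = 0.0227 from limma). Lkb1 KO replicates 1 and 3 lay near the WT pools and the other three well above. The Col12a1 call was lost without any 1 of Lkb1 KO replicates 2 and 4 or WT replicates 1, 2 and 4 (adjusted p between 0.0527 and 0.0620 from limma). Col14a1, the FACIT most like Col12a1 in structure, averaged 9.48 ± 0.16 in Lkb1 KO and 9.51 ± 0.18 in WT DRGs (SD, n = 5 each), a log2 fold change of -0.03 with a 95% confidence interval of -0.23 to 0.17. Col22a1, a collagen of tissue junctions such as that of muscle and tendon, was at 6.27, 6.32, 6.34, 6.37 and 6.15 in Lkb1 KO pools and at 6.59, 6.50, 6.45, 6.44 and 6.65 in WT pools. It was the only member for which every Lkb1 KO pool lay below every WT pool (log2 fold change -0.24, SE 0.05, adjusted p = 0.0294 from limma). The Col22a1 call was lost with a block for the replicate number (adjusted p = 0.0536 from limma) and without any 1 of Lkb1 KO replicates 1, 2 and 5 or WT replicates 1, 2 and 5 (adjusted p between 0.0528 and 0.0753 from limma). Col20a1 was at -0.20 (SE 0.05, adjusted p = 0.0697 from limma) and passed without Lkb1 KO replicate 4 (-0.24, adjusted p = 0.0140 from limma), and Col16a1 and Col19a1 were within 0.06 of 0.

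Col28a1 had the log2 fold change furthest below 0, but did not pass. Its product, type XXVIII collagen, is known in mice from the surface of Schwann cells in peripheral nerve. It was at 7.85, 7.37, 7.52, 7.30 and 7.18 in Lkb1 KO pools and at 8.37, 7.67, 7.89, 8.01 and 7.83 in WT pools. Replicate 1 was the highest of both groups, and that Lkb1 KO pool overlapped with WT replicates 2 and 5, whereas within each replicate number the Lkb1 KO pool was lower by 0.31 to 0.71. The log2 fold change was -0.51 (SE 0.13, adjusted p = 0.0564 from limma), and with a block for the replicate number the adjusted p was 0.00105 from limma. It also passed without Lkb1 KO replicate 1 (adjusted p = 0.0135 from limma) or without WT replicate 2 (adjusted p = 0.0465 from limma). Array medians aligned, array weights and the dimmest 30% of genes left out gave adjusted p of 0.0476, 0.0312 and 0.0481 from limma. In all, Col28a1 passed in 6 of 21 alternatives, over which its log2 fold change ran from -0.61 to -0.38. It did not pass when Lkb1 KO replicates 2 and 5 were both left out. Of 9 measured Schwann and satellite cell markers 1 was called higher (Dhh, log2 fold change 0.69) and 1 lower (Cdh19, -0.50), and their mean level per pool was 8.89 to 8.98 in Lkb1 KO and 8.88 to 8.95 in WT; their part in the Col28a1 values was not tested.

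Of the network-forming class, Col8a1, a short-chain collagen of vessels and of the cornea, was at 7.39, 7.32, 7.36, 7.30 and 7.41 in Lkb1 KO pools and at 7.20, 7.11, 7.18, 7.07 and 7.21 in WT pools, with no overlap. Its log2 fold change was 0.21 (SE 0.04, adjusted p = 0.0135 from limma). Its partner chain Col8a2 was at 0.02 (95% confidence interval -0.09 to 0.14), and the difference between the 2 chains, 0.18 (SE 0.07), had an exact two-sided permutation p of 0.0397 and of 0.132 after adjustment over the 10 pairs. Col10a1, the collagen of hypertrophic cartilage, was among the dimmest 30% of genes, at 0.04. None of the 4 transmembrane collagens was called: Col17a1, of the hemidesmosome, was furthest from 0 at 0.09 (SE 0.05), and Col13a1, Col23a1 and Col25a1 lay between -0.01 and 0.06. Col26a1 and Col7a1, the anchoring fibril of skin, were at 0.02 and 0.04.

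Of the 32 uncalled members 3 (Col4a6, Col6a4 and Col10a1) were among the dimmest 30% of genes. Lkb1 KO replicate 4 was the highest Lkb1 KO pool for 20 of the 32 uncalled members, and WT replicate 5 was the highest WT pool for 16. The lower quartile of all genes was 5.12 on that Lkb1 KO array, 5.00 to 5.04 on the other Lkb1 KO arrays and 5.01 to 5.05 on the WT arrays. After cyclic loess, which brought the lower quartiles of the Lkb1 KO arrays to 5.04 to 5.06, it was the highest for 18 of the 32.

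The cartilage collagens cut across these classes: Col2a1, Col9a1, Col9a2, Col9a3, Col10a1, Col11a1 and Col11a2. All 7 had a positive log2 fold change, with a median of 0.16, but only Col2a1 was called. Type IX collagen coats type II fibrils, and its genes Col9a1 (0.25, SE 0.08, adjusted p = 0.105 from limma), Col9a2 (0.19, SE 0.06, adjusted p = 0.0936 from limma) and Col9a3 (0.05, SE 0.08) were not called. With a block for the replicate number Col9a1 (adjusted p = 0.0166 from limma) and Col9a2 (adjusted p = 0.0490 from limma) passed. Of the 15 other cartilage and sclerotome markers measured, 1 was called higher (Sox9, the transcription factor of chondrocyte fate and of glia, at 0.25) and none lower. Of those 15 genes 8, among them Acan, Comp, Matn1 and Matn3, were in the dimmest 30% of all genes, and the mean level of the 15 was 5.51 to 5.63 in Lkb1 KO pools and 5.51 to 5.55 in WT pools. Their part in the Col2a1 result was not tested.

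Genes whose products fold, modify, trim, crosslink and bind collagen were described from 3 lists of 46 genes, of which 42 were measured. Of these 7 were called higher (16.7%) and 3 lower (7.14%), against the 2.49% and 1.38% of all genes tested. With a block for the replicate number 13 were called higher and 3 lower, P4ha1, P3h2, Ddr2, Itga10, Mrc2 and Adgrg6 being added (adjusted p between 0.0127 and 0.0419 from limma).

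All 20 measured folding and modification genes had a positive log2 fold change, with a median of 0.11, and 5 were called. Serpinh1, the collagen chaperone Hsp47, was at 8.54, 8.64, 8.66, 8.69 and 8.52 in Lkb1 KO pools and at 8.25, 8.35, 8.40, 8.34 and 8.35 in WT pools, a log2 fold change of 0.27 (SE 0.04, adjusted p = 0.0041 from limma) with no overlap. P3h1, a prolyl 3-hydroxylase, rose by 0.19 (adjusted p = 0.0127 from limma), and Plod2, the lysyl hydroxylase that prepares crosslinks, rose by 0.23 (adjusted p = 0.0173 from limma). Fkbp14, a proline isomerase, rose by 0.17 (adjusted p = 0.0377 from limma), and P4ha2, a catalytic subunit of prolyl 4-hydroxylase, by 0.26 (adjusted p = 0.0428 from limma). The last 2 calls were each lost without single pools: Fkbp14 without any 1 of Lkb1 KO replicates 1, 3 and 5 or WT replicates 1, 2, 3 and 4 (adjusted p between 0.0645 and 0.0958 from limma), and P4ha2 without any 1 of Lkb1 KO replicates 1, 2, 4 and 5 or WT replicates 1, 2, 4 and 5 (adjusted p between 0.0659 and 0.114 from limma).

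Of the 11 measured genes for processing and crosslinking, the 2 enhancers of procollagen C-proteinase moved in opposite directions. Pcolce was at 8.91, 8.90, 8.64, 8.93 and 8.78 in Lkb1 KO pools and at 8.38, 8.43, 8.26, 8.47 and 8.50 in WT pools, a log2 fold change of 0.42 (SE 0.06, adjusted p = 0.0021 from limma). Pcolce2 was at 8.20, 8.12, 8.06, 7.85 and 8.16 in Lkb1 KO pools and at 8.51, 8.28, 8.47, 8.39 and 8.48 in WT pools, a log2 fold change of -0.35 (SE 0.07, adjusted p = 0.0112 from limma). The groups did not overlap for either gene. Adamts14, which removes aminopropeptides, was at 0.14 (adjusted p = 0.103 from limma) and passed without Lkb1 KO replicate 5 (0.17, adjusted p = 0.0327 from limma).

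Among the 11 measured receptors 1 was higher and 2 were lower. Itga1, the integrin chain that with beta1 prefers type IV collagen, was at 7.71, 7.26, 7.21, 7.21 and 7.26 in Lkb1 KO pools and at 7.18, 6.87, 6.78, 6.93 and 6.89 in WT pools, a log2 fold change of 0.40 (SE 0.10, adjusted p = 0.0430 from limma). Itga2, which with beta1 prefers type I, was at 9.02, 8.66, 8.84, 8.96 and 8.80 in Lkb1 KO pools and at 9.37, 8.99, 9.26, 9.21 and 9.20 in WT pools, a log2 fold change of -0.35 (SE 0.08, adjusted p = 0.0234 from limma), and Lkb1 KO replicate 1 overlapped with WT replicate 2. Adgrg1, an adhesion receptor for type III collagen, fell by 0.23 (SE 0.05, adjusted p = 0.0365 from limma). Each of these calls was lost without single pools. Itga1 did not pass without any 1 of Lkb1 KO replicates 2 to 5 or WT replicates 2 to 5 (adjusted p between 0.0560 and 0.114 from limma). Itga2 did not pass without any 1 of Lkb1 KO replicates 2, 3 and 5 or WT replicates 1, 3 and 4 (adjusted p between 0.0529 and 0.0648 from limma), nor Adgrg1 without any 1 of Lkb1 KO replicates 1 to 4 or WT replicates 2 to 4 (adjusted p between 0.0552 and 0.102 from limma).

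**Figure D4:**
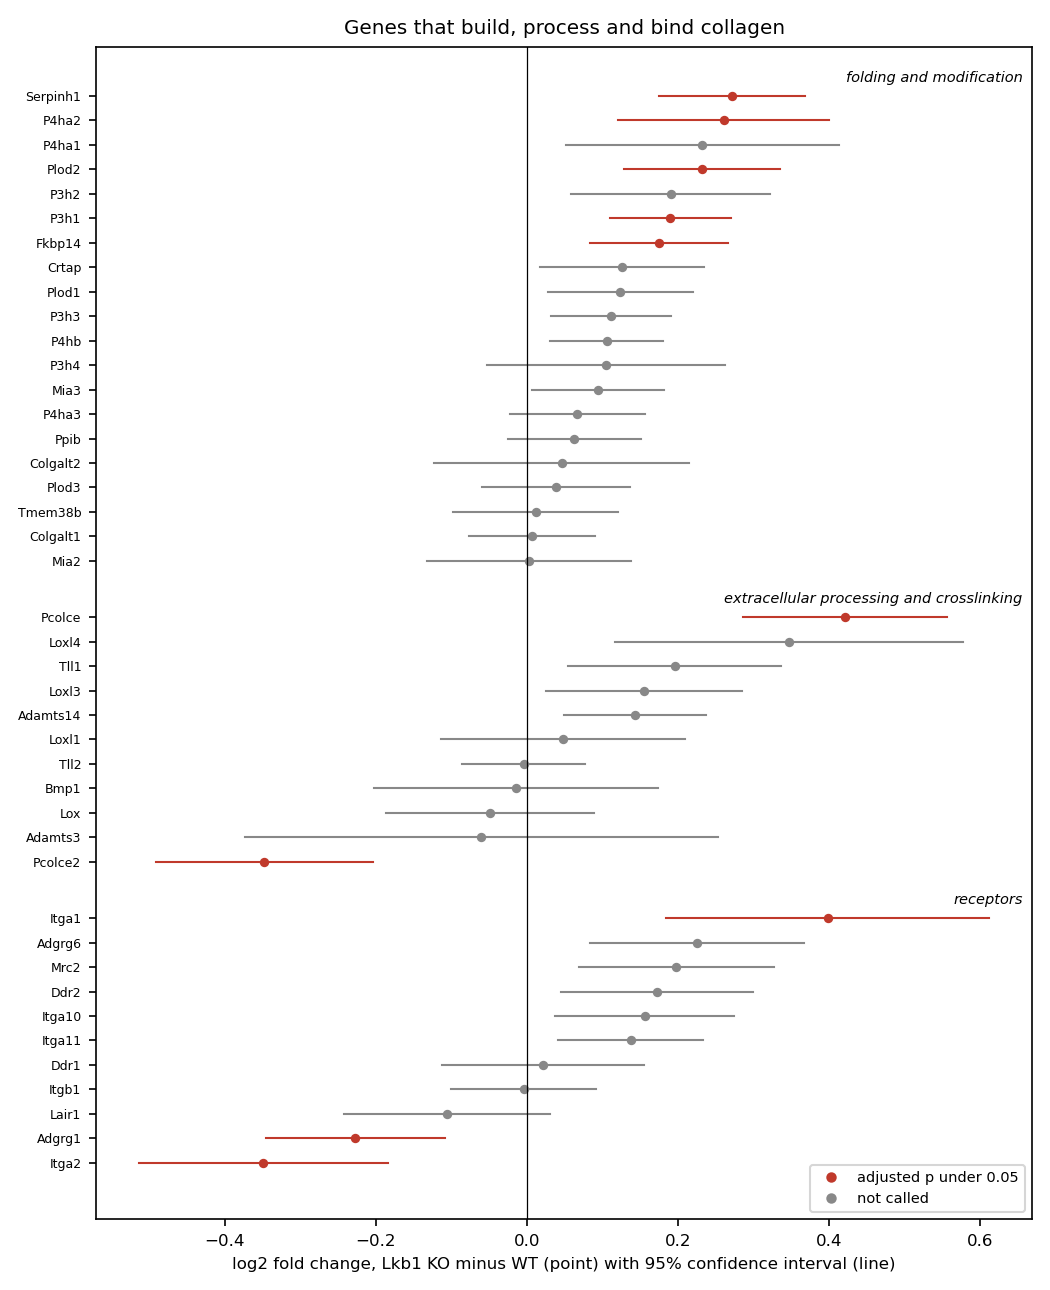
Log2 fold changes (Lkb1 KO minus WT, points) with 95% confidence intervals (lines) of the 42 measured genes that fold, process or bind collagen, sorted within each list; red marks an adjusted p under 0.05 from limma. All 20 folding and modification genes lie right of 0, while the called processing and receptor genes lie on both sides.

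Some lists of cell type markers also differed between the groups, and others did not. Over all genes tested, 2.49% were called higher and 1.38% lower. Of 17 measured fibroblast and mesenchyme genes that are not collagens, 6 were called higher and none lower: Lum (0.50), Fap (0.40), Postn (0.36), Twist1 (0.30), Prrx1 (0.29) and Dcn (0.25). Their mean level was 8.19 to 8.27 in Lkb1 KO pools and 8.01 to 8.08 in WT pools, without overlap. Of 10 meningeal markers 3 were higher and 1 lower (8.37 to 8.59 in Lkb1 KO, 8.31 to 8.47 in WT), of 13 endothelial markers 1 was higher (8.03 to 8.32 in Lkb1 KO, 8.03 to 8.10 in WT), and of 11 pericyte and smooth muscle markers 1 was higher (6.48 to 6.62 in Lkb1 KO, 6.40 to 6.46 in WT). All 9 measured genes of dividing cells were higher (8.96 to 9.24 in Lkb1 KO, 8.57 to 8.79 in WT). Of 15 sensory neuron markers 4 were lower and none higher (10.08 to 10.20 in Lkb1 KO, 10.24 to 10.38 in WT). None of 10 macrophage markers was called (6.34 to 6.47 in Lkb1 KO, 6.29 to 6.44 in WT), and none of 11 skeletal muscle genes. The part of these cells in the collagen levels was not tested. Skeletal muscle genes stood apart in Lkb1 KO replicate 3 alone, with a mean level of 6.16. It was 5.30 to 5.42 in the other Lkb1 KO pools and 5.26 to 5.38 in WT pools. Without Lkb1 KO replicate 3, 10 collagen genes were called higher and 1 lower, and over all genes 406 and 179.

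The pools also differed in sex. For 3 Y-linked genes the mean level was 9.77, 9.79 and 9.81 in WT replicates 1, 3 and 5. In WT replicates 2 and 4 it was 8.965 and 8.85. Among Lkb1 KO pools it was 9.72 in replicate 3 and 8.80 and 8.84 in replicates 1 and 4. The mean level was only 5.02 and 5.21 in Lkb1 KO replicates 2 and 5. With that mean as a covariate, or without those 2 pools, 7 collagen genes were called higher and none lower, while the genes called higher over the whole array fell in number to 285 and 288, against 496 in the comparison of all pools. The 7 were Col18a1, Col3a1, Col2a1, Col6a3, Col1a1, Col1a2 and Col6a2. The calls for Col12a1 (adjusted p = 0.149 with the covariate and 0.135 without the pools, from limma), Col22a1 (0.176 and 0.125), Col6a1 (0.0914 and 0.0956), Col8a1 (0.0540 and 0.0683) and Col5a1 (0.0511 and 0.0812) were lost. The log2 fold changes under these settings were 0.24 and 0.25 for Col6a1, 0.21 and 0.20 for Col8a1 and 0.19 and 0.18 for Col5a1, against 0.22, 0.21 and 0.16 for these genes over all pools. Those of Col12a1 (0.23 and 0.23, against 0.31 over all pools) and Col22a1 (-0.19 and -0.20, against -0.24) were nearer 0. Among the partners Serpinh1, Pcolce, Pcolce2 and Adgrg1 kept their calls under both, and Adamts14 gained one (adjusted p = 0.0431 and 0.0406 from limma). P3h1 (adjusted p = 0.0937 with the covariate and 0.0918 without the pools, from limma) and Plod2 (0.0793 and 0.0925) lost theirs. So did P4ha2, Fkbp14, Itga1 and Itga2 under both.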

How the data were processed

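Levels came from Affymetrix Mouse Gene 1.0 ST arrays (250 ng of RNA each). The authors deposited log2 values for 35556 probe sets; the processing notes name RMA and Partek 6.6, and no genome build for these values is given in the sources used here. The array medians ran from 6.50 to 6.57. Of the probe sets, 21789 named 1 gene, 1621 several, and 12146 are unnamed here. Fkbp10, Adamts2, Loxl2 and Gp6 were not analysed here.

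The sample labels gave each sample's group and replicate number. The test of Lkb1 KO against WT was that of limma 3.58.1 (R 4.3.3, lmFit and eBayes, two-sided, Benjamini-Hochberg over 19938 genes). On simulated arrays with independent noise it recovered 98 of 100 changes of 0.5 and 99 of 100 changes of 1, with 13 false calls. Smaller changes were not simulated. Pairs of collagen genes were compared by exact permutation of the samples (252 assignments) on the within-array difference. Figures and promoter searches used Python 3.11.15. The members, gene lists and pairs were chosen with earlier results of these data known. Values in every pool are given for called or non-overlapping members and leading chains; of each partner list the called genes and the 3 with the smallest unadjusted p are named, and genes that other settings added were named after their values were seen.

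Same-numbered samples deviated together (correlations of 0.48, 0.37, 0.28, 0.21 and 0.24 across genes), and a fit with the number as a block was therefore made as an alternative; neither the test above nor the 252 assignments use the numbers. That pairing comes from the values, since the labels do not say what a number marks. With 5 arrays per group, their number sets the precision.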

Additional observations from a re-analysis of the deposited data

Results flagged for a closer look

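Among 112 groups of 5 pools (56 genes: the collagen genes, the partners named and Stk11), 5 held 1 pool far from the others by Dixon's test, which by chance marks about 1 in 20 groups. WT replicate 1 stood above the other WT pools for Col14a1 (9.81, the next being 9.47) and for Col6a2 (7.37, the next being 7.24). Lkb1 KO replicate 4 stood above the other Lkb1 KO pools for Col7a1 (6.04, the next being 5.85) and Col25a1 (5.69, the next being 5.56), neither of which was called. Lkb1 KO replicate 1 was at 7.71 for Itga1, the next pool being 7.26.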

How the results depend on the processing

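Across 21 alternatives, 7 of the 12 called collagen genes were called every time: Col18a1, Col1a1, Col1a2, Col2a1, Col3a1, Col6a2 and Col6a3. Col8a1 was called in 19 of the 21, Col12a1 in 13, Col22a1 in 11, Col6a1 in 9 and Col5a1 in 6. Of the 32 uncalled members 7 passed in at least 1 alternative, and 14 changed sign in at least 1. Against 11 collagen genes higher and 1 lower, there were 7 and 0 with the Y-linked covariate, after dropping Lkb1 KO replicates 2 and 5, or at an adjusted p under 0.01 ; 8 and 0 with a one-way analysis of variance; 9 and 2 with array medians aligned; 12 and 3 with array weights; and 11 and 2 with the dimmest 30% of genes left out. Leaving out each pool in turn gave 8 to 13 higher and 0 to 2 lower; the 0 came without Lkb1 KO replicate 2 or 5 or WT replicate 1 or 5, and the 2 without Lkb1 KO replicate 4. With the replicate block 13 were higher and 1 lower, 10 of them called without it too; beyond Col5a1, Col22a1, Col28a1, Col4a5, Col9a1 and Col9a2 the pairing changed no other collagen call.

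Against 7 partners higher and 3 lower, there were 3 and 0 with the analysis of variance, 13 and 3 with the replicate block, 4 and 2 with the Y-linked covariate, 3 and 2 when Lkb1 KO replicates 2 and 5 were left out, and 2 and 0 at an adjusted p under 0.01. Leaving out each pool gave 4 to 6 higher and 1 to 3 lower, with 4 higher without WT replicate 2 or 4 and 1 lower without Lkb1 KO replicate 2 or 3 or WT replicate 3 or 4. Over all genes, the counts were 496 higher and 275 lower. They were 715 and 565 with the replicate block and 260 and 127 with the analysis of variance. Array medians aligned gave 504 and 313, array weights 612 and 377, and the dimmest 30% left out 516 and 314. Across the fits that left out 1 pool, 333 to 487 genes were higher and 146 to 347 lower. The median of the FACIT genes was 0.09 with the Y-linked covariate, and that of the network-forming genes 0.11 with the dimmest genes left out, which removes Col10a1. Of collagen genes, 16 had an unadjusted p under 0.05 upwards (36.4%) and 4 downwards (9.09%), against 7.51% and 7.77% of all genes tested. The cause of these shifts was not tested otherwise. The Stk11 log2 fold change stayed between -0.99 and -0.83.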
